A study of Mus musculus with 6 samples.

Results

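The subject is Arid3a occupancy at 10 genes of the smooth muscle contractile apparatus, Acta2, Tagln, Cnn1, Myh11, Smtn, Lmod1, Mylk, Cald1, Tpm1 and Tpm2. Peaks were taken that touched the mm10 body of one of these genes or the 10 kb on either side of it. Peaks of the 6 libraries that overlapped by at least 1 bp were merged into regions, and 76 of the 79295 regions of the whole series lay in these windows. The libraries came from primary mouse vascular smooth muscle cells (VSMCs), and each was made by CUT&Tag, in which an antibody, here against Arid3a, guides a transposase to cut the DNA around the bound protein. Of these, 3 came from cells transfected with siRNAs against Arid3a, labelled si-Arid3a#1, si-Arid3a#2 and si-Arid3a#3 (siRNA-labelled 1 to 3), and 3 from cells labelled negative control (NC-labelled 1 to 3). The labels state a 24 h incubation with siRNA and 10000 cells per library, and they describe a 36 h angiotensin II model of aneurysm without saying which libraries were exposed. The labels name no strain, sex or age of the mice, and they leave unsaid whether replicates were grown as separate cultures. The p-values therefore speak of library-to-library spread alone, and that spread may be technical. If the siRNA labels stand for different siRNAs, each has 1 library, and the spread in that group also holds differences between siRNAs.

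Contractile smooth muscle cells shorten when myosin light chain kinase phosphorylates the light chains of smooth muscle myosin, which then pulls on actin filaments decorated with tropomyosin, caldesmon and calponin. Most of these genes are controlled by serum response factor, which binds CArG boxes together with its cofactor myocardin, and VSMCs lower them when they switch to a synthetic state in vessel disease. Arid3a is a DNA-binding protein of the AT-rich interaction domain family. A peak marks where fragments were cut, not how much a gene is transcribed, so neither the cell type nor the knockdown is checked by these data.

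Each library gave 43834 to 51682 peaks. Total reads were not used here, and the depth was read from the peak lists as the most frequent background under the peaks, which was 0.475, 0.482 and 0.538 fragments per base in siRNA-labelled 1 to 3 and 0.670, 0.673 and 0.621 in NC-labelled 1 to 3. The groups did not overlap, so treatment and coverage cannot be told apart in any presence or unscaled value. SiRNA-labelled 1 had the lowest background and the fewest peaks. Inside each of the 6 lists, peaks are named after a library of the opposite group. Groups follow the sample labels, and if the names inside the lists held instead, every direction between groups would be reversed. A background library made without this antibody was not analysed here.

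Occupancy at the start sites differed between the genes. RefSeq's promoter table for GRCm38.p6, the assembly of mm10, held 9 start sites of 8 of the 10 genes, and none of Tagln or Myh11. Each start had a window of 250 bases before and 50 after it. A peak touched 6 of these 9 windows in all 6 libraries, those of Acta2, Smtn, Tpm1 and Tpm2 and both listed starts of Cald1. Over all 32851 windows of the table the share was 28.4%. The Cnn1 window had a peak in 1 siRNA-labelled and 3 NC-labelled libraries, the Lmod1 window in NC-labelled 1 only, and the listed Mylk start in no library. This Mylk start lies inside the gene. A region with a peak in all 6 libraries lay over the left end of Mylk, its upstream end on the plus strand. The starts of Tpm2, Lmod1 and Mylk and the second start of Cald1 are not printed. Of these, Lmod1 and Mylk held GGAATG, while Tpm2 and the second Cald1 start, with a peak in all 6 libraries, did not. The printed starts alone therefore do not show how this motif goes with occupancy. The 250 bases before the other 5 starts are shown. Each runs 5′ to 3′ on the gene's strand up to the base before the start, and capitals mark GGAATG or CATTCC and CArG-like sequences.
Acta2, chr19:34255374-34255623, minus strand: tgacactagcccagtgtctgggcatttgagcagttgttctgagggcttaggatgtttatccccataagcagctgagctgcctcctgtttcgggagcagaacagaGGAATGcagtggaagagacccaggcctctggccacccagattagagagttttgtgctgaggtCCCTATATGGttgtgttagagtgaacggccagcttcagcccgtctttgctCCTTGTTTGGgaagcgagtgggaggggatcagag
Smtn, chr11:3539293-3539542, minus strand: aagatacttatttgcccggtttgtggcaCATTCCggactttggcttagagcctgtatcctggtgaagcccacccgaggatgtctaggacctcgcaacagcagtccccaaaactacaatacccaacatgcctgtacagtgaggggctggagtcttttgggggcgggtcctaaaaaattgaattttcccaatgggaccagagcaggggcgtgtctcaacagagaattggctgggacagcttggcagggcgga
Cald1, first listed start, chr6:34598254-34598503, plus strand: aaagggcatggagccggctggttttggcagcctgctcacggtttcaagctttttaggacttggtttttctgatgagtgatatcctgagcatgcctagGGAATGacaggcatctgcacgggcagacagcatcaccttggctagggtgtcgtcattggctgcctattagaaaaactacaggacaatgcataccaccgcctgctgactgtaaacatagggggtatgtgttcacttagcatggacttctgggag
Tpm1, chr9:67049214-67049463, minus strand: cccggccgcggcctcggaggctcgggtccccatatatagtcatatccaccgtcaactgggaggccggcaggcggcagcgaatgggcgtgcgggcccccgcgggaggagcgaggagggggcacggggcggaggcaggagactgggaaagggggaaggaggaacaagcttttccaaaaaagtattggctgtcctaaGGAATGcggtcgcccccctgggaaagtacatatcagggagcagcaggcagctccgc
Cnn1, chr9:22099003-22099252, plus strand: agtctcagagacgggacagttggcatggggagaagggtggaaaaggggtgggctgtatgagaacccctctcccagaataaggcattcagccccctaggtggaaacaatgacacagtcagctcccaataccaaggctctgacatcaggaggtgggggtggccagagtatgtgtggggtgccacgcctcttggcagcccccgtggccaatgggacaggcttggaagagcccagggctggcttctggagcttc

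GGAATG, searched on both strands, is the core of the MCAT element that TEAD factors bind in muscle genes. It stood in 6 of the 9 member promoters, those of Acta2, Smtn, Tpm1, Lmod1 and Mylk and the first start of Cald1, against 12.6% of all 32851 promoters over the same 250 bases. Of those 6, a peak touched the window of 4 in all 6 libraries, of Lmod1 in 1 and of the listed internal Mylk start in none. A strict CArG box stood in 0 of the 9 (1.47% of all promoters). With so low a share over all promoters, 0 of 9 does not set these promoters apart, and those of Tagln and Myh11 were not searched. A looser CArG form with 1 C or G allowed among its middle A or T letters stood in 1 of the 9 (8.59% of all), at Acta2, where CCCTATATGG began 84 bases and CCTTGTTTGG 34 bases before the start. ATTAAA, an AT-rich motif reported for Arid3a, stood in 0 of the 9 on either strand (12.7% of all), and TATAAA in 1, the second start of Cald1 (12.4% of all). No match in a member promoter overlapped another. These matches are letters in a window of 250 bases and not sites of binding.

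Arid3a peaks were found in the window of every one of the 10 genes in every library, but they were spread unevenly. Of the 76 regions, 36 (47.4%) had a peak in all 6 libraries, against 37.3% of all regions of the series, and 17 (22.4%) had a peak in 1 library only, against 30.2% of all regions. Cald1, which encodes the actin-binding caldesmon, held 31 of the 76 regions and 18 of the 36 shared ones. Of the shared regions, 29 overlapped the body of the member gene and 7 lay beside it, and 5 overlapped another protein-coding gene. The shared regions ranked like others, with a median of 54.5 for the lowest within-list percentile of −log10 q over the 6 libraries, against 54.7 over all shared regions. Their summits differed between libraries by 121 bp in the median region, from lowest to highest position, against 155 bp over all shared regions.

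**Figure D1:**
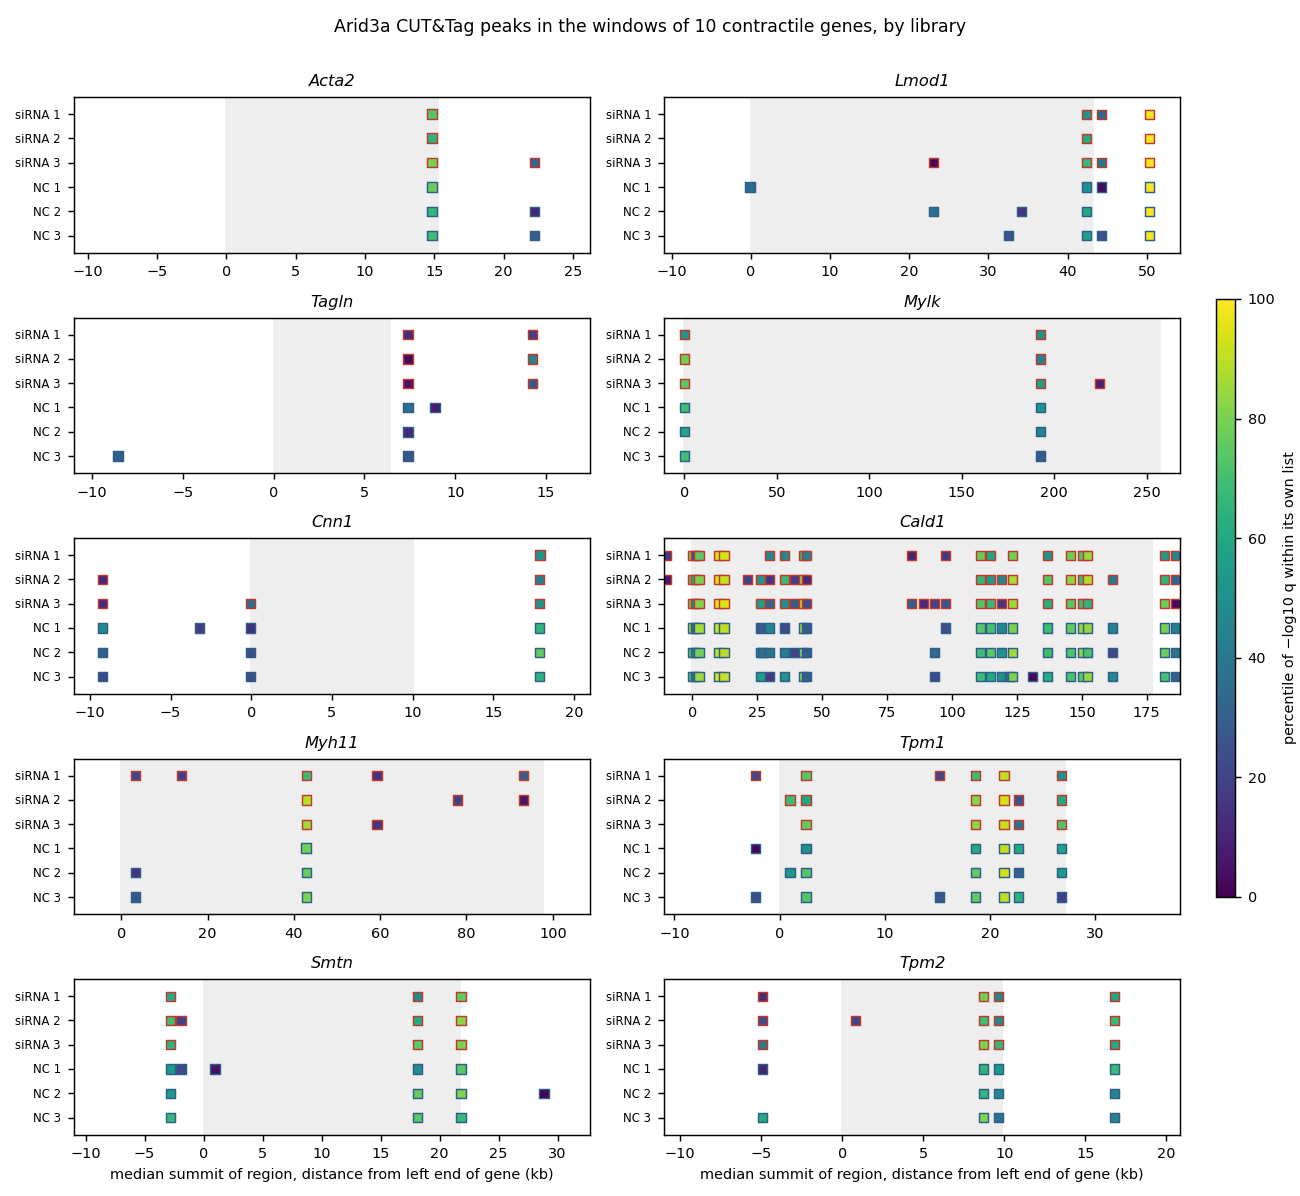
Peaks in the windows of the 10 genes. Each square is a region with a peak in that library, placed on the horizontal axis at its median summit in kb from the left end of the gene and coloured by the percentile of −log10 q in its own list; grey marks the gene body, red outlines mark siRNA-labelled and blue outlines NC-labelled libraries. Cald1 carried 31 regions, and the Myh11 and Mylk bodies carried 1 and 2 shared regions.

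Density of shared regions ordered the genes into dense and sparse ones. Per 10 kb of window, Tpm2 had 1.00 shared regions, Cald1 0.914, Tpm1 0.850 and Smtn 0.718, which put them at percentiles 88.5 to 95.9 of 21883 protein-coding genes counted the same way. Tagln with 0.378, Cnn1 with 0.333, Lmod1 with 0.316 and Acta2 with 0.284 lay at percentiles 60.0 to 69.9, and the shared regions of Tagln and Cnn1 lay outside the gene body. Myh11 with 0.0850 and Mylk with 0.0721 lay at percentiles 40.4 and 39.7. The median protein-coding gene had 0.194, and 37.6% of them had none. A window of a short gene holds mostly its flanks, so neighbouring genes enter these counts.

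Fragments at the summit were solved from the deposited fold and p-value of the peak. The fold is the deposited ratio of the summit to its local background, each with 1 added. The percentile ranks the −log10 q of the peak among all peaks of its own list. The leading region of a gene is the shared one whose lowest percentile over the 6 libraries is highest.

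Acta2, smooth muscle alpha-actin, is the main actin of the contractile filament. Its shared region (chromosome 19, 34254360 to 34255913) covered the start site, with a median summit 203 bp downstream of it. It held 29, 27 and 37 fragments at the summit in siRNA-labelled 1 to 3, against 44, 34 and 34 in NC-labelled 1 to 3. The fold over local background was 6.81, 5.96 and 7.79 in siRNA-labelled 1 to 3, against 6.74, 5.93 and 5.86 in NC-labelled 1 to 3. In both measures the groups overlapped. The percentiles of −log10 q were 73.4, 65.1 and 80.0 in siRNA-labelled 1 to 3, against 77.6, 66.0 and 69.3 in NC-labelled 1 to 3. The only other region of the Acta2 window lay to the right of the gene, with 9 fragments in siRNA-labelled 3 and 8 and 11 in NC-labelled 2 and 3.

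Tagln encodes transgelin (SM22-alpha), an actin-associated protein used as an early smooth muscle marker. No shared region overlapped its body. The nearest one (chromosome 9, 45936646 to 45937377) began 587 bp beyond its right end and was weak, with 12, 10 and 11 fragments in siRNA-labelled libraries, against 18, 14 and 15 in NC-labelled libraries. Every siRNA-labelled library lay below every NC-labelled one in this unscaled count, and the groups overlapped after scaling for coverage. Its percentiles were 11.6, 2.90 and 5.74 in siRNA-labelled 1 to 3, against 35.9, 10.7 and 26.3 in NC-labelled 1 to 3, the lowest of the 10 leading regions.

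Cnn1 encodes smooth muscle calponin, which binds actin and slows the myosin motor. The region at its start (chromosome 9, 22098807 to 22099432; median summit 81 bp upstream) had 13 fragments in siRNA-labelled 3 and no peak in siRNA-labelled 1 and 2, against 11, 13 and 12 fragments in NC-labelled 1 to 3. It was a weak peak, at percentile 34.6 in siRNA-labelled 3 and at 13.7, 23.5 and 23.6 in NC-labelled libraries. The 1 shared region of the window (chromosome 9, 22116764 to 22117507) lay 7542 bp from the gene over the promoter of Elof1, a transcription elongation factor gene. It had 17, 15 and 16 fragments in siRNA-labelled 1 to 3, against 24, 30 and 21 in NC-labelled 1 to 3. These unscaled counts did not overlap between groups, while the scaled ones did.

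Cald1 had peaks in all 6 libraries at both listed starts. The first (chromosome 6, 34598212 to 34598835) held 41, 39 and 44 fragments in siRNA-labelled 1 to 3, against 63, 54 and 47 in NC-labelled 1 to 3. The second (34708152 to 34709692) held 44, 38 and 46 in siRNA-labelled 1 to 3, against 58, 55 and 46 in NC-labelled 1 to 3. The highest-ranked Cald1 region lay 10221 bp downstream of the first start (34608476 to 34608957), with 69, 77 and 88 fragments in siRNA-labelled 1 to 3, against 93, 82 and 92 in NC-labelled 1 to 3, at percentiles 93.2, 93.8 and 95.2 in siRNA-labelled 1 to 3, against 93.2, 90.0 and 94.5 in NC-labelled 1 to 3. Its neighbour (34609905 to 34611160) held 70, 68 and 86 in siRNA-labelled 1 to 3, against 82, 79 and 80 in NC-labelled 1 to 3. The strongest occupancy in Cald1 thus sat inside the gene and not at its starts. Across the 18 shared regions of the window, the lowest library of a region held 11 to 69 fragments and the highest 22 to 93.

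Tpm1 and Tpm2 encode tropomyosins, the coiled-coil proteins that lie along the actin filament and gate myosin access. The leading Tpm1 region (chromosome 9, 67043569 to 67044097) lay 5298 bp downstream of the listed start, with 62, 80 and 76 fragments in siRNA-labelled libraries, against 91, 102 and 81 in NC-labelled libraries. The region at the Tpm1 start (67048908 to 67049811) was lower, with 21, 26 and 33 in siRNA-labelled 1 to 3, against 32, 29 and 19 in NC-labelled 1 to 3. In Tpm2 the leading region (chromosome 4, 43522107 to 43522789) also lay inside the gene, 1125 bp downstream of the listed start, with 36, 31 and 41 fragments in siRNA-labelled 1 to 3, against 34, 37 and 47 in NC-labelled 1 to 3. The region over the Tpm2 start (43523094 to 43523664) held 23, 23 and 32 in siRNA-labelled 1 to 3, against 29, 29 and 25 in NC-labelled 1 to 3. In each of Cald1, Tpm1 and Tpm2, the region ranked highest in its weakest library was an internal one and not the one over a listed start.

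The motor and its kinase were sparsely occupied. Myh11, the smooth muscle myosin heavy chain and the marker most restricted to this cell type, had 1 shared region (chromosome 16, 14237223 to 14237701), 42916 bp from its left end. It held 18, 32 and 29 fragments in siRNA-labelled 1 to 3, against 28, 25 and 27 in NC-labelled 1 to 3, with a fold over local background of 8.35, 14.5 and 12.7 in siRNA-labelled 1 to 3, against 11.2, 11.9 and 11.7 in NC-labelled 1 to 3. Mylk, the myosin light chain kinase gene, is transcribed from several starts into long and short kinases. Its leading region (chromosome 16, 34744878 to 34745521) lay over the left end of the gene, its upstream end on the plus strand. The listed start at 34784950 lies downstream, inside the gene. This leading region held 12, 21 and 21 fragments in siRNA-labelled 1 to 3, against 21, 17 and 20 in NC-labelled 1 to 3. The other shared Mylk region (34937343 to 34938032) lay inside the gene, with 11, 11 and 13 in siRNA-labelled 1 to 3, against 13, 12 and 10 in NC-labelled 1 to 3. At both leading regions siRNA-labelled 1 was the lowest of the 6 libraries and the other siRNA-labelled libraries lay at or above the NC-labelled range.

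Smtn encodes smoothelin, an actin-binding protein of contractile cells, and Lmod1 leiomodin 1, which nucleates actin filaments. The leading Smtn region (chromosome 11, 3538526 to 3539654) covered its start, with 35, 42 and 43 fragments in siRNA-labelled 1 to 3, against 46, 53 and 35 in NC-labelled 1 to 3. In the Lmod1 window the leading region (chromosome 1, 135374242 to 135375510) lay 6176 bp from Lmod1, over the promoter of Shisa4. It was the strongest of all 76, with 140, 161 and 206 fragments in siRNA-labelled 1 to 3, against 173, 184 and 148 in NC-labelled 1 to 3, and percentiles of 98.8 or more in every list. The shared region within Lmod1 itself (135366871 to 135367736) was near its right end, far from the start, with 20, 23 and 28 in siRNA-labelled 1 to 3, against 24, 29 and 26 in NC-labelled 1 to 3.

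**Figure D2:**
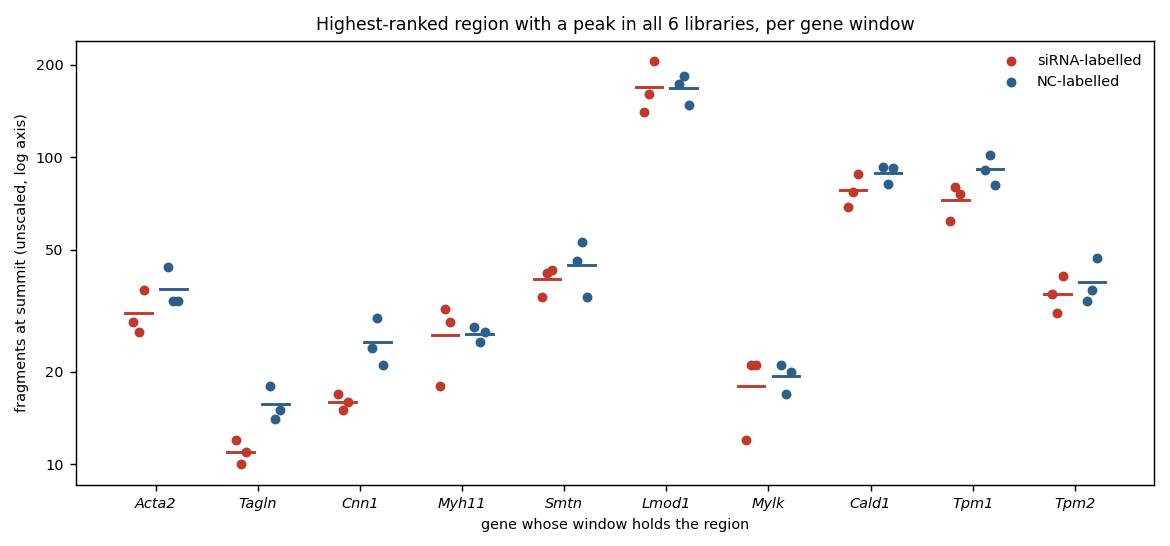
Fragments at the summit (unscaled, log axis) of the region with the highest lowest percentile in each gene window. Points are libraries and lines are group means of 3, siRNA-labelled in red on the left and NC-labelled in blue on the right. At the Tagln, Cnn1 and Tpm1 windows every siRNA-labelled library lay below every NC-labelled library before scaling for coverage. The same was seen at 30.5% of all tested shared regions, and after scaling the groups overlapped at these windows' regions. The Lmod1 window's region lies over Shisa4.

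Presence of a peak was compared next. A peak in all 3 siRNA-labelled and no NC-labelled library was found at 1 of the 76 regions (1.32%), against 0.342% of all regions. This region (chromosome 9, 45943748 to 45944375) lay 7689 bp to the right of Tagln, inside Sidt2, a lysosomal membrane protein gene. It held 11, 15 and 13 fragments and stood at percentiles 19.1, 44.8 and 28.4. The reverse, a peak in all 3 NC-labelled libraries only, was found at 0 of the 76, against 0.608% of all regions. With 3 libraries against 3, no single region can reach an exact p below 0.1.

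Regions whose number of libraries differed by at least 2 numbered 5 with more siRNA-labelled libraries (6.58%, against 3.43% of all regions) and 2 with more NC-labelled libraries (2.63%, against 5.03% of all). The 2 were the Cnn1 start and a region inside Cald1 (34760205 to 34760468), which had 12 fragments in siRNA-labelled 2, against 16, 12 and 16 in NC-labelled 1 to 3. Beside the Sidt2 region, the 5 were a region inside Myh11 (14253659 to 14253984) with 6 fragments in siRNA-labelled 1 and 3, another inside it (14287528 to 14287869) with 7 and 5 in siRNA-labelled 1 and 2, a region 9872 bp left of Cald1 (34588234 to 34588622) with 6 and 5 in siRNA-labelled 1 and 2, and a region inside Cald1 (34682562 to 34682927) with 7 and 10 in siRNA-labelled 1 and 3. All of these peaks were small, at most 16 fragments.

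The number of member regions with a peak was 48, 51 and 53 in siRNA-labelled 1 to 3 and 51, 51 and 53 in NC-labelled 1 to 3. The means were 50.7 ± 2.52 and 51.7 ± 1.15 (SD, n = 3 each), a difference of -1 that lay within the spread (two-sided exact permutation p = 0.9). Among peaks with a −log10 q of at least 5 the difference was -4 regions, with the smallest exact permutation p the design allows, 0.1. Peaks covered less of the windows, 25.6 ± 0.511 kb in siRNA-labelled and 29.6 ± 0.217 kb in NC-labelled libraries (SD, n = 3 each). Every siRNA-labelled library lay below every NC-labelled one (25.2, 25.4 and 26.2 kb in siRNA-labelled 1 to 3, against 29.4, 29.8 and 29.7 kb in NC-labelled 1 to 3), and the exact permutation p of 0.1 is the smallest this design allows. The whole lists showed the same order, with 22.5, 23.5 and 25.4 Mb covered in siRNA-labelled 1 to 3, against 27.4, 27.7 and 27.5 Mb in NC-labelled 1 to 3, and the windows of the 10 genes took 0.108 ± 0.00445% of the covered length in siRNA-labelled and 0.108 ± 0.000328% in NC-labelled libraries (SD, n = 3 each; exact permutation p = 1). Cald1 covered 10.9, 12.1 and 12.3 kb in siRNA-labelled 1 to 3, against 13.5, 14.1 and 13.7 kb in NC-labelled 1 to 3, and the other 9 genes together 14.3, 13.3 and 13.9 kb in siRNA-labelled 1 to 3, against 15.9, 15.7 and 16.0 kb in NC-labelled 1 to 3. The background was lower in the siRNA-labelled libraries. With lists matched on background coverage, an alternative chosen after seeing the data that drops peaks but does not narrow those kept, the difference was -3.79 kb (exact permutation p = 0.1), against -4.02 kb unmatched.

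**Figure D3:**
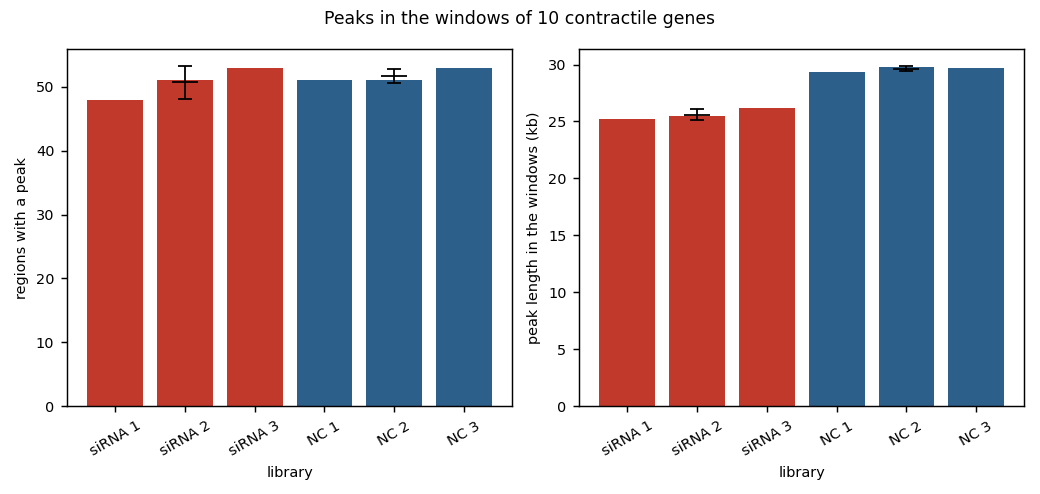
Number of member regions with a peak (left) and kb of peaks in the 10 gene windows (right) per library. Bars are libraries, siRNA-labelled in red and NC-labelled in blue, and the black marks give the mean ± SD of each group (n = 3). Region numbers overlap at 48 to 53 and 51 to 53, while covered length does not, at 25.2 to 26.2 kb and 29.4 to 29.8 kb.

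Summit fragments, scaled for each library by its median ratio over the shared regions, were tested with limma over 29572 regions, those of the 29602 shared ones whose fragments could be solved in all 6 libraries. With Benjamini-Hochberg adjustment 57 regions passed an adjusted p of 0.05 (0.193%), 24 higher (0.0812%) and 33 lower (0.112%) in the siRNA-labelled libraries. Of the 36 shared regions of the contractile genes, 0 passed in either direction, and 2 had an unadjusted limma p under 0.05 (5.56%, against 11.3% of all regions). With the deposited fold in place of fragments, 0 of all 29572 regions passed, so 0 among the 36 could not set them apart. The fold gave an unadjusted limma p under 0.05 at 1 of the 36 regions, with no share over all regions given here. Since these regions had a peak in every library, the comparison leaves out those that are absent in one group. The median log2 difference, siRNA-labelled minus NC-labelled, was 0.051 over the 36 regions and -0.00077 over all regions. It ranged from -0.37 to 0.38, inside the 5th to 95th percentile of all regions, -0.40 to 0.41. The 2 regions under an unadjusted p of 0.05 were the one over Shisa4 and a Cald1 region 150228 bp from the left end of the gene.

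At the Shisa4 region the scaled fragments averaged 185 ± 20.9 in siRNA-labelled and 151 ± 9.84 in NC-labelled libraries (SD, n = 3 each), a log2 difference of 0.29 ± 0.093 (SE; limma adjusted p = 0.171). Without siRNA-labelled 1 it was 0.35, with a limma adjusted p of 0.034. In that setting 150 regions passed higher and 215 lower over all regions, against 24 and 33 with all 6 libraries. With any other library left out, its limma adjusted p was 0.238 to 0.503. The Cald1 region (34747995 to 34749865) had 43, 46 and 46 unscaled fragments in siRNA-labelled 1 to 3, against 79, 76 and 61 in NC-labelled 1 to 3. Scaled, it had the most negative log2 difference of the 36, -0.37 ± 0.14 (SE; limma adjusted p = 0.273). Its summits spread over 1281 bp between libraries, so the libraries did not all peak at the same position. Acta2 differed by 0.026 ± 0.18 and Smtn by 0.15 ± 0.16 at their leading regions (log2 ± SE; limma adjusted p = 0.978 and 0.783). Myh11 differed by 0.24 ± 0.20 and Mylk by 0.15 ± 0.23 (log2 ± SE; limma adjusted p = 0.705 and 0.861). Cald1 differed by 0.10 ± 0.12 and Tpm2 by 0.17 ± 0.17 (log2 ± SE; limma adjusted p = 0.811 and 0.765). Tpm1 differed by -0.036 ± 0.12 (log2 ± SE; limma adjusted p = 0.951). The Cnn1 window's region over Elof1 differed by -0.33 ± 0.22 and the region beside Tagln by -0.21 ± 0.25 (log2 ± SE; limma adjusted p = 0.592 and 0.813). Leaving out 1 library moved most of these values by over 1.5 times: Myh11 was 0.42 without siRNA-labelled 1 and 0.083 without siRNA-labelled 2, and Mylk 0.35 and 0.026. None of these differences had a limma adjusted p under 0.05 with all 6 libraries, which does not show that the groups were alike. The scaled groups did not overlap at the Shisa4 region, siRNA-labelled above, nor at the Cald1 region at 34747995, NC-labelled above. Over all tested regions 7.71% and 8.09% were apart in these directions.

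In the Cald1 window 13 of 18 shared regions had a negative log2 difference (median -0.056), and in the other 9 windows 4 of 18 did (median 0.15). Over all tested regions 50.1% were negative. Regions of 1 gene are not independent, and the difference between Cald1 and the other windows was not tested. With the deposited fold over local background in place of fragments, 5 of 18 Cald1 regions were negative (median 0.068), against 47.4% of all. In the other windows 4 of 18 were (median 0.13). The sign of the Cald1 median thus depended on the measure and its scaling, and was positive also for fragments scaled by background (median 0.042). Scaling fragments by the background raises every log2 difference by the same amount, and the median of all regions was then 0.098. With this scaling 6 of 18 Cald1 regions and 2 of 18 others were negative, against 33.6% of all. Unscaled, the siRNA-labelled group lay wholly below the NC-labelled group at 7 of the 36 regions (19.4%), against 30.5% of all shared regions. Scaled, the groups did not overlap at 4 regions, with siRNA-labelled above at 3 and NC-labelled above at 1, against 7.71% and 8.09% of all.

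**Figure D4:**
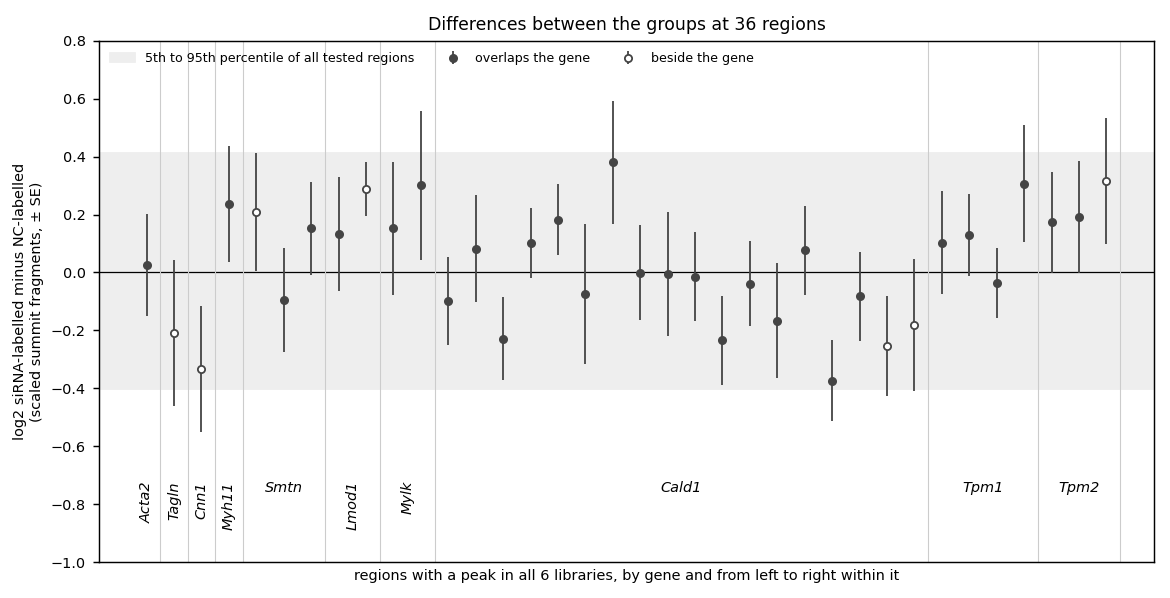
Log2 difference of scaled summit fragments, siRNA-labelled minus NC-labelled, at the 36 regions with a peak in all 6 libraries, ordered by gene and by position within it. Points are limma estimates and bars their SE; filled points overlap the gene, open points lie beside it, and the grey band spans -0.40 to 0.41, the 5th to 95th percentile of all 29572 tested regions. No point passed the adjusted test, and 13 of the 18 Cald1 points lie below 0.

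Further genes of the contractile apparatus were read in the same way. All 28 were found in the gene table, and 24 had at least 1 shared region in their window, 83 of 228 regions in all. Over the whole series 37.6% of protein-coding genes had no shared region, and 37.3% of regions were shared. None of the 83 passed the limma test in either direction (lowest adjusted p = 0.104), against 0.193% of all regions. An unadjusted limma p under 0.05 was found for 10 of the 83, against 11.3% of all regions, and the median log2 difference of the 83 was 0.015. The median density of the 28 genes was 0.259 shared regions per 10 kb, against 0.356 for the 10 genes. Tpm4, another tropomyosin, and Tln1, the integrin-actin linker talin, were among the densest with 1.06 and 0.979. Des, the muscle intermediate filament desmin, and Kcnmb1, the beta subunit of the calcium-activated potassium channel, had none. Vcl, which encodes the adhesion protein vinculin, held the 1 region present in NC-labelled libraries only, with 12, 16 and 13 fragments. That was 1 of the 228 regions, against 0.608% of all regions. In siRNA-labelled libraries only, 0 of the 228 were present, against 0.342% of all.

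Windows of genes of other cell types were counted with them. A shared region was found in 4 of 6 endothelial, 1 of 6 blood cell, 2 of 4 epithelial, 1 of 6 skeletal and cardiac muscle and 0 of 4 liver genes, against 10 of 10 contractile genes. Of those 10, 8 had one in the gene body, and those of Tagln and Cnn1 lay beside it. Among all protein-coding genes 37.6% had no shared region in their window. The difference between the lists was not tested. The blood cell exception was Cd68, with 5 shared regions and 2.28 per 10 kb. Of the 31 endothelial regions, 1 was present in siRNA-labelled libraries only (7, 5 and 11 fragments), against 0.342% of all regions. Another 1 was present in NC-labelled libraries only (18, 12 and 12 fragments), against 0.608% of all. Both lay in the window of the endothelial adhesion gene Pecam1. No region of these lists passed the limma test (lowest adjusted p = 0.276), and an unadjusted limma p under 0.05 was found for 2 of 5 blood cell, 1 of 4 epithelial, 1 of 2 muscle and 0 of 6 endothelial regions, against 11.3% of all regions.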

How the data were processed

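Peaks from 6 CUT&Tag libraries were deposited as 1 list per library. Per the submitters' processing notes, Bowtie2, Picard and MACS2 were used with mm10; the sources used here give no versions or settings. The authors deposited for each peak a score, a fold over local background (a ratio), a −log10 p-value, a −log10 q-value and a summit position. From the fold and −log10 p-value, the fragments at the summit and the local background were solved here (tolerance 0.002). Peaks sharing at least 1 bp were merged into regions. Gene bodies and starts came from RefSeq (GRCm38.p6). Libraries were grouped by their treatment label. Totals were compared by two-sided exact permutation (smallest p 0.1), and log2 summit fragments scaled by median ratio with limma 3.58.1 (R 4.3.3; trended variance, Benjamini-Hochberg adjustment over all 29572 regions). Other steps used Python 3.11.15, pandas 2.3.3, numpy 2.4.6, scipy 1.17.1 and matplotlib 3.10.9. The scripts were tested on simulated data. The genes and lists were chosen with earlier results of these data known, and the promoter motifs after the files were read. For each gene the text names the shared region with the highest value of its lowest within-list percentile, every region that differs by at least 2 libraries between groups and, for other lists, genes whose region counts differ most. Start-site regions, neighbours and the most negative Cald1 region were named after their values were seen. Alternatives covered the window, the scaling, the filters and each library left out.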

Additional observations from a re-analysis of the deposited data

Results flagged for a closer look

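In 6 of 6 lists the peaks were named after the library of the opposite group that has the same number. The sample labels were followed for every group in the text. Which of the names is right was not tested, and every difference between siRNA-labelled and NC-labelled libraries would change sign if the peak names were right.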

How the results depend on the processing

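Among 278 values recomputed under alternative settings, 253 were classed as the same, 1 newly passed the threshold, 14 moved and 10 changed sign. The class of same values includes large changes, such as 24 regions in all 6 libraries against 36, and a difference in region number of -5 against -1. Where no cause is given it was not tested. Regions in siRNA-labelled libraries only numbered 0 with 1 kb windows, 0 at −log10 q of at least 5, 5 with siRNA-labelled 2 and 3 as 1 sample, and 1 to 3 with a library left out. Regions in NC-labelled libraries only numbered 2 where at least 50% of a region had to be covered, 1 with equal list lengths, and 0 to 1 with a library left out. Taking libraries as 1 sample or leaving 1 out loosens the rule for every region of the series. Shares over all regions under these settings are not given here, so these counts say nothing particular to the member genes. Regions in all 6 libraries, 36 in the main setting, numbered 67 with 50 kb windows and 36 to 40 with a library left out. They numbered 24 where at least 50% of a region had to be covered and 29 at −log10 q of at least 5. They numbered 30 with 1 kb windows and 33 with equal list lengths. The median log2 difference was 0.15 when scaled by background, 0.13 with the deposited fold, and 0.0077 (without NC-labelled 3) to 0.076 with a library left out. The difference in region number was -2.17 to 0.333 with a library left out, positive without siRNA-labelled 1. It was -4 at −log10 q of at least 5 (exact permutation p 0.1), -5 with 50% of a region covered and -3 with equal list lengths (exact permutation p 0.2 each). With a library left out the difference in covered length was -4.30 to -3.81 kb. Member regions that passed higher numbered 0 to 1, the 1 being that over Shisa4 without siRNA-labelled 1, and 0 passed lower. The Tpm1 region turned to 0.063 when scaled by background (the same shift for every region) and 0.12 with the fold. It was 0.0055 without siRNA-labelled 1 and 0.013 without NC-labelled 2 (from -0.10 to 0.013 with a library left out). The Myh11 region turned to -0.0054 with the fold. The Acta2 region turned to -0.0021 without siRNA-labelled 1, -0.048 without siRNA-labelled 3, -0.071 without NC-labelled 2 and -0.0037 without NC-labelled 3 (from -0.071 to 0.14 with a library left out). The other leading regions kept their sign with a library left out: Myh11 0.083 to 0.42, Mylk 0.026 to 0.35, Smtn 0.019 to 0.25, Cald1 0.0088 to 0.16, Tpm2 0.070 to 0.34, Tagln -0.34 to -0.11, that over Elof1 -0.45 to -0.23 and that over Shisa4 0.20 to 0.35. Over all regions, limma calls were 24 higher and 33 lower, against 64 and 7 when scaled by background, 0 and 0 with the fold, 3 and 9 with siRNA-labelled 2 and 3 as 1 sample, 150 and 215 without siRNA-labelled 1, and 2 and 1 without NC-labelled 1. Libraries with the same replicate number had correlations of deviations of 0.040, 0.032 and -0.021. SiRNA-labelled 1 and 2 each correlated best with the NC-labelled library of their own number, and siRNA-labelled 3 did not. Such small values cannot decide whether the numbers pair the libraries. With the replicate block the calls were 51 and 74, 0 of them in member regions, and the differences stayed -1 region and -4.02 kb. With lists matched on background coverage the differences were -0.333 regions and -3.79 kb. Coverage and group cannot be told apart for the presence of small peaks.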
